A study of Mus musculus with 27 samples.

Results

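Protein-coding genes of mouse chromosome 6 were followed along the chromosome in wild type embryonic stem cells and in 2 knockout lines. The set holds the 627 protein-coding genes of that chromosome, without the Hoxa cluster, whose mean over all 27 libraries was at least 1 on the counts-per-million (CPM) scale, out of 51826 gene identifiers in the count files. Of the chromosome's 1083 protein-coding genes outside the Hoxa cluster, 456 lay below that level, and 3 Hoxa genes above it were left out by the rule. Chromosome 6 was singled out because the median ratio of each knockout line to wild type was lowest there, so every comparison of a knockout line with wild type below is a description and carries no test. The 2 members just inside the level limit were Mfap5, at a mean of 1.0001 CPM, and Cracr2a at 1.0133, and the 2 genes just outside were Gsdme at 0.9997 and Tspan11 at 0.9842. The reference for every relative value is the 12069 protein-coding genes of the other 18 autosomes at the same level limit.

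Total RNA was sequenced from the E14 mouse embryonic stem cell line (Wild Type) and from 2 lines of the same genetic background, 1 labelled as lacking Quaking (gene Qk; Quaking KO) and 1 labelled as lacking Sam68 (gene Khdrbs1; Sam68 KO). Both genes encode STAR proteins, which bind RNA, and neither lies on chromosome 6. Each line was collected at day 0, as stem cells, and at days 3 and 10 of embryoid body formation, in which the cells aggregate and differentiate. The 9 groups of line and day have 3 biological replicates each. Each knockout is 1 line, so the knockout and the history of that line cannot be told apart. The labels number the Sam68 KO libraries in a range of their own, so the line and a separate round of library making cannot be told apart either.

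Mouse chromosomes other than the Y have their centromere close to one end, and positions on chromosome 6 are counted from that end. The chromosome carries a neighbourhood of stem cell genes around Nanog, imprinted genes around Peg10 and Mest, which are read from 1 parental copy, and abundant metabolic genes such as Gapdh. The RNA of 1 chromosome can be compared with the RNA of all others in the same library, because both were counted together.

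The 3 members with the lowest mean of the 6 log2 fold changes of knockout line against wild type, among members with a mean of at least 5 CPM, were Gm20594, Col1a2 and Ppm1k. Their promoters are shown because they carry the largest differences described below and differ in base composition: the 250 bases before the RefSeq start site on the GRCm38.p6 assembly, 5′ to 3′ on the gene's strand, with each CpG pair in capitals. RefSeq start sites can differ from the GENCODE gene starts given further on.
Gm20594 (chr6:79817781-79818030, plus strand): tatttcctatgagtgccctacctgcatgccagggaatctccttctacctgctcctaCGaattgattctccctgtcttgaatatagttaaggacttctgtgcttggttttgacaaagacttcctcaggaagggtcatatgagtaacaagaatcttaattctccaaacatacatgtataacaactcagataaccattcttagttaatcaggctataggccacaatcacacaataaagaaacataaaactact
Col1a2 (chr6:4505368-4505617, plus strand): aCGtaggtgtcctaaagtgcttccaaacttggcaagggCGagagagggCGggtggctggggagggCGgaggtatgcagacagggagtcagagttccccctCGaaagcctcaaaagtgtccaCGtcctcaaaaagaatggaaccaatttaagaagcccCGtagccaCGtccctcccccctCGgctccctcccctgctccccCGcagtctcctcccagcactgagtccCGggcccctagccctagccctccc
Ppm1k (chr6:57535488-57535737, minus strand): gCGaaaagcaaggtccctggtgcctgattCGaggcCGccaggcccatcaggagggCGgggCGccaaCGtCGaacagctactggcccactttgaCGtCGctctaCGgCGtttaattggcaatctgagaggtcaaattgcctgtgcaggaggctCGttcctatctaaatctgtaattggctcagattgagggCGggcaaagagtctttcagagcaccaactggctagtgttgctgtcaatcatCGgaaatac
The Gm20594 promoter held 1 CpG and 38.4% G and C, that of Col1a2 held 11 and 62.0%, and that of Ppm1k held 14 and 54.4%. Promoter entries were found for 529 of the 627 members (84.4%) and for 9542 of 11716 reference genes (81.4%) on the 17 other autosomes that the RefSeq table covers. The median member promoter held 14 CpG and 59.6% G and C, beside 16 CpG and 60.4% over the other autosomes. The letters GGGCGG, searched on both strands, were in 60.5% of the member promoters and in 61.0% of the others, and TATAAA was in 8.1% and 6.1%. The promoters of Col1a2 and Ppm1k hold GGGCGG on either strand, the promoter of Gm20594 does not, and TATAAA was found in none of the 3.

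The libraries held 56461674 to 77257496 counts, and a member had a median of 1412 counts per library. Qk was lower than wild type in the Quaking KO line but not lost, with 140 ± 5.88 CPM (SD, n = 3) against 213 ± 4.56 at day 0, 114 ± 3.44 against 223 ± 5.35 at day 3 and 218 ± 10.4 against 293 ± 19.9 at day 10. Khdrbs1 was not lost in the libraries labelled Sam68 KO, which held 96.0 ± 3.56 CPM at day 0 against 89.7 ± 2.29 in wild type, 103 ± 6.95 against 158 ± 8.39 at day 3, and 101 ± 1.87 against 126 ± 31.2 at day 10. A gene-level count does not show whether either protein is made. Both names are therefore the labels' own, and the second line is called Sam68-labelled here. The summed CPM of 6 pluripotency markers (Pou5f1, Sox2, Zfp42, Esrrb, Klf4, Tfcp2l1) was 2560 to 2710 in wild type at day 0, 2990 to 3210 in Quaking KO and 2300 to 2360 in the Sam68-labelled line. At day 3 it was 912 to 1000, 904 to 1050 and 742 to 767, and at day 10 it was 119 to 132, 131 to 143 and 243 to 286. All 6 were above 1 CPM in every group. Counts of replicates of 1 group differed by more than sampling noise in every pair, with a chi-square of at least 3.37 per degree of freedom, so no library was counted as a copy of another.

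Chromosome 6 RNA was lower relative to the other autosomes in both knockout lines at every day, and the difference from wild type was largest in the stem cells. In each library the log2 ratio of each gene to the mean of the day's wild type libraries was taken on the scale log2(CPM + 0.5), and the median over the other autosomes was subtracted from the median over the 627 members. At day 0 the Quaking KO libraries read -0.174, -0.181 and -0.172, and the Sam68-labelled libraries read -0.177, -0.172 and -0.179, while the wild type libraries lay between -0.0046 and 0.0056. The mean was -0.176 ± 0.0049 (SD, n = 3) in Quaking KO and -0.176 ± 0.0034 in the Sam68-labelled line. On this scale the median ratio of the members was thus 11.5% below that of the other autosomes in either line. At day 3 the Quaking KO libraries read -0.0899, -0.0863 and -0.0932 and the Sam68-labelled ones -0.0805, -0.0768 and -0.0840. The means were -0.0898 ± 0.0035 and -0.0804 ± 0.0036, or median ratios 6.03% and 5.42% lower. At day 10 the values were -0.0672, -0.0702 and -0.0806 in Quaking KO and -0.0946, -0.0845 and -0.0787 in the Sam68-labelled line. Their means were -0.0726 ± 0.0070 and -0.0859 ± 0.0080, or median ratios 4.91% and 5.78% lower. No knockout library overlapped the wild type libraries, whose own range was -0.0073 to 0.0103 at day 10. Both lines were set against the same wild type libraries, so a high reading of those libraries would enter both differences.

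The same median can be taken against the mean of all 27 libraries, which gives no line the part of a reference. It uses the same libraries and genes, so it cannot tell a high wild type level from a low level in both knockout lines. On that scale the wild type libraries read 0.0644 to 0.0835 as stem cells, between 0.0384 and 0.0485 at day 3 and between 0.0974 and 0.121 at day 10. Quaking KO libraries lay between -0.120 and -0.107 as stem cells, between -0.0617 and -0.0394 at day 3 and between 0.00413 and 0.0279 at day 10. Sam68-labelled libraries read -0.123 to -0.104, -0.0573 to -0.0423 and 0.00339 to 0.0455 at the same days. Wild type thus stood above both other lines at every day, and the 2 knockout lines overlapped each other at every day. All 3 lines read higher at day 10 than at day 3, and only the knockout lines read lower at day 0 than at day 3.

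**Figure D1:**
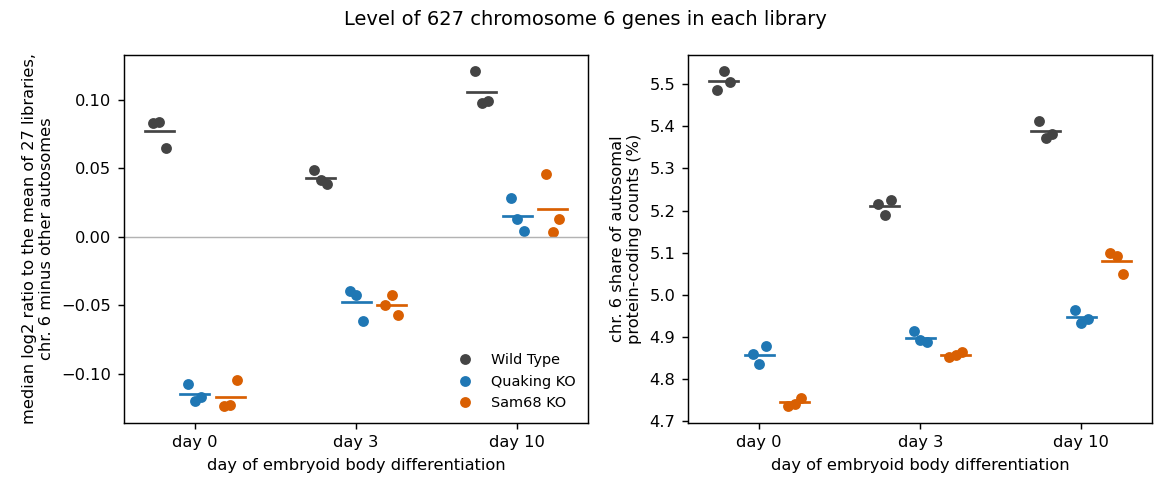
Left, median log2 ratio of the 627 chromosome 6 genes to the mean of the 27 libraries, minus the same median over the other autosomes; right, share of all autosomal protein-coding counts that fell on the members, in percent. Each point is 1 library and each line the mean of 3; the wild type libraries lie above both knockout lines at every day in both plots.

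As a share of all autosomal protein-coding counts, the members took 5.49%, 5.53% and 5.51% in the 3 wild type libraries at day 0. They took 4.86%, 4.84% and 4.88% in Quaking KO and 4.74%, 4.74% and 4.76% in the Sam68-labelled line. At day 3 the shares were 5.19% to 5.23% in wild type, 4.89% to 4.91% in Quaking KO and 4.85% to 4.86% in the Sam68-labelled line. At day 10 they were 5.37% to 5.41%, 4.93% to 4.96% and 5.05% to 5.10%. The share weighs abundant genes most, and wild type again overlapped neither knockout line.

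Set beside the other autosomes, chromosome 6 had the lowest median of 19 in 5 of the 6 comparisons of a knockout line with wild type, which is how it was chosen. With group means in place of single libraries, its medians were -0.173, -0.0946 and -0.0728 at days 0, 3 and 10 in Quaking KO. They were -0.183, -0.0814 and -0.0828 in the Sam68-labelled line. At day 3 chromosome 13 stood next to it in the Sam68-labelled line at -0.0809, and at day 10 chromosome 11 was lower at -0.0842. Other autosomes moved by comparable amounts the other way at day 10: chromosome 8 stood 0.116 above the rest in Quaking KO and 0.124 above in the Sam68-labelled line, and chromosome 14 stood 0.169 above in the latter.

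**Figure D2:**
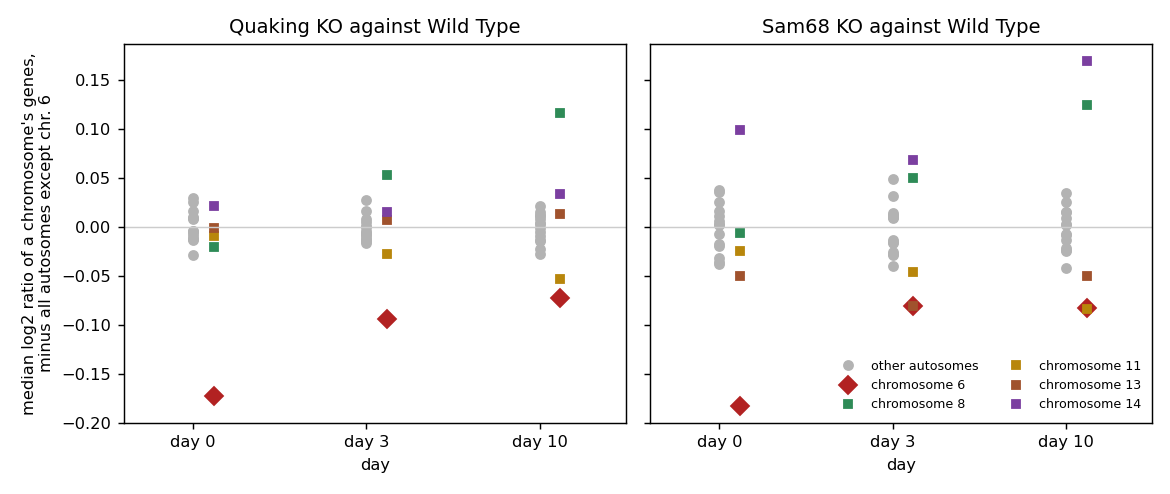
Median log2 ratio of each autosome's protein-coding genes to wild type, minus the median over all autosomes except chromosome 6, by day, for Quaking KO (left) and the Sam68-labelled line (right). Grey points are autosomes without a colour of their own; chromosome 6 (red diamond) lies lowest except at day 10 in the Sam68-labelled line, where chromosome 11 lies at -0.0842 and chromosome 6 at -0.0828.

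The lower level was spread over the whole length of the chromosome in the stem cells. Members were grouped by start site into 15 bins of 10 Mb (megabases), numbered from the centromeric end, with 12 to 86 members each. In Quaking KO all 15 bins had a median below the other autosomes at day 0, from -0.326 in bin 11 to -0.0835 in bin 13, and again at day 3, from -0.143 to -0.0572, and at day 10, from -0.136 to -0.0112. Bins 2, 7 and 11 hold under 20 members, and the other 12 bins ranged from -0.293 to -0.0835, from -0.143 to -0.0572 and from -0.136 to -0.0400 at the 3 days. Of the 194 bins of the other autosomes, 56.2%, 55.7% and 53.6% lay below 0 at the 3 days, with a middle range from the 5th to the 95th percentile of -0.127 to 0.0677 at day 0. Of the same 194 bins, 3, 4 and 14 lay below the median of the 12 fuller chromosome 6 bins at days 0, 3 and 10. The bins of chromosome 6 were closest together at day 3, where the SD over the 12 fuller bins was 0.0229, beside 0.0369 over the other autosomes' bins.

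In the Sam68-labelled line all 15 bins lay below 0 at day 0, 12 at day 3 and 13 at day 10, or 12, 10 and 10 of the 12 fuller bins. Of the other autosomes' bins, 54.6%, 51.0% and 54.1% lay below 0 in this line, and 4, 48 and 52 of 194 lay below the median of the fuller chromosome 6 bins. The chromosome thus stood less apart by bins in this line at days 3 and 10 than at day 0. With bins of 20 Mb, all 8 bins lay below 0 at each of the 3 days. So did 55%, 51.7% and 59.2% of the 120 such bins of the other autosomes. Of those 120 bins, 5, 32 and 11 lay below the median of the chromosome 6 bins. The first 10 Mb stood lowest among the fuller bins: its 24 members read -0.426 at day 0 (single libraries -0.441, -0.406 and -0.333), -0.363 at day 3 (-0.348, -0.328 and -0.364) and -0.238 at day 10 (-0.280, -0.215 and -0.218). Of these members 91.7% lay below 0 at day 0. In Quaking KO the same bin read -0.276, -0.0632 and -0.136 at the 3 days. The next bin, with 19 members, read -0.343, -0.287 and -0.156 in the Sam68-labelled line. From 20 Mb on, the fuller bins of that line ranged from -0.278 to -0.0639 at day 0, and at day 3 bins 4 and 13 lay at 0.0199 and 0.0033. At day 10 the lowest value, -0.439, belonged to bin 7, which holds 12 members, and the lowest fuller bin was the first.

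**Figure D3:**
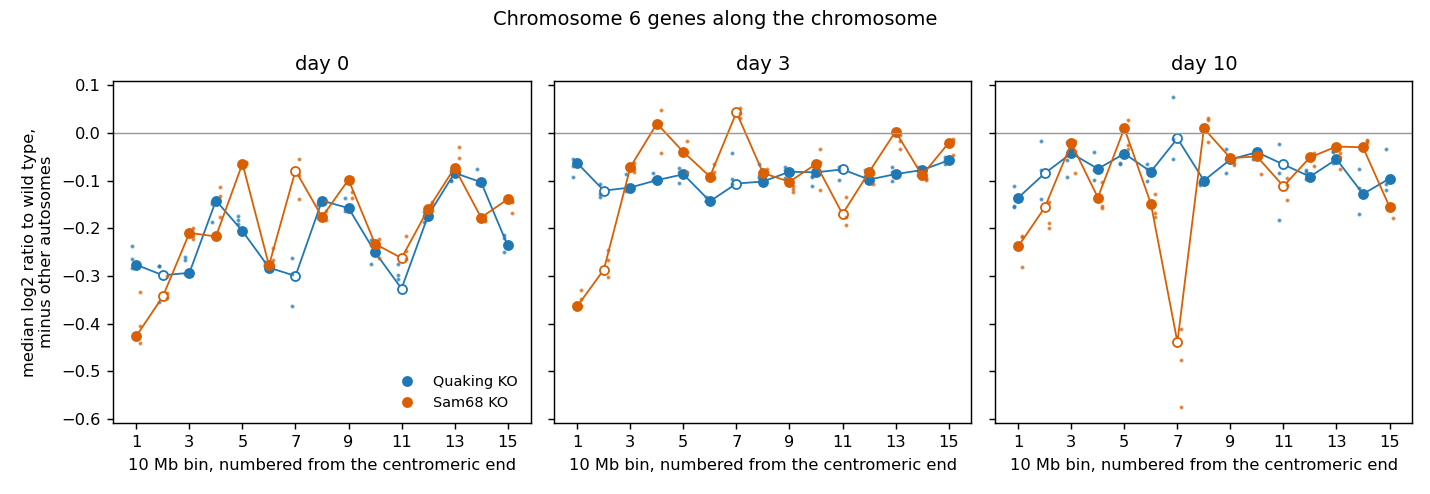
Median log2 ratio to wild type of chromosome 6 members per 10 Mb bin, minus the median of the other autosomes, at days 0, 3 and 10. Circles joined by lines are group values (open where a bin has under 20 members) and small dots the 3 libraries; all 15 bins of both lines lie below 0 at day 0, and the first bin of the Sam68-labelled line lies lowest there at -0.426.

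At day 0 the distribution of the members was shifted down from the 10th to the 90th percentile in both lines. A larger share of members lay below the median of the other autosomes in Quaking KO than in the Sam68-labelled line. In Quaking KO 81.5% of the members lay below the median of the other autosomes at day 0, 79.1% at day 3 and 66.7% at day 10. These shares were 68.6%, 58.5% and 58.5% in the Sam68-labelled line. At day 0 the 10th percentile of the members was -0.556 in Quaking KO, beside -0.336 over the other autosomes, and the 90th percentile was 0.0987 beside 0.248. In the Sam68-labelled line the 10th percentiles were -0.658 and -0.413 and the 90th were 0.312 and 0.510. The spread of the reference genes was thus wider in the Sam68-labelled line, where the same shift of the median moved fewer members below 0.

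**Figure D4:**
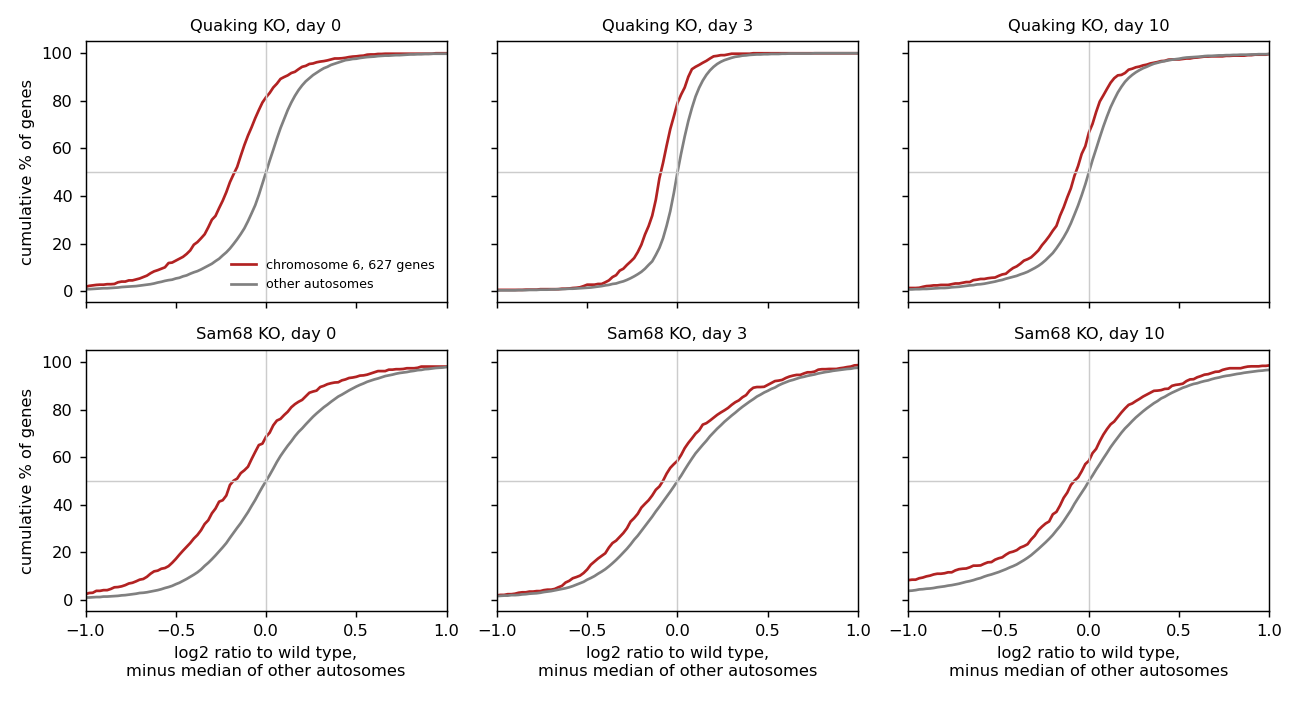
Cumulative percent of genes (y axis) at or below each log2 ratio to wild type, after subtraction of the median of the other autosomes (x axis), for the 627 members (red) and the 12069 reference genes (grey) by line and day. The red curve lies to the left of the grey one at its middle in all 6 panels; at 0 it stands at 81.5% in Quaking KO at day 0 and at 58.5% in the Sam68-labelled line at day 10.

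The shift was present at every level of expression in Quaking KO. Split into tertiles by mean CPM, 209 members each, the medians at day 0 were -0.161, -0.196 and -0.166 from the lowest to the highest tertile, beside -0.0392, 0.0014 and 0.0211 for reference genes of the same ranges. At day 3 they were -0.0683, -0.0987 and -0.100, beside -0.0108, 0.0034 and 0.0021. At day 10 they were -0.122, -0.0856 and -0.0402, beside -0.0530, -0.0069 and 0.0288, so the reference genes moved with level in the same direction. In the Sam68-labelled line at day 0 the tertiles read -0.0427, -0.183 and -0.272, beside 0.0308, 0.0218 and -0.0479 for the reference genes. At day 3 its lowest tertile read 0.0576, beside 0.0933, and the highest -0.202, beside -0.0763. At day 10 its tertiles read -0.206, -0.0213 and -0.0551, beside -0.115, 0.0243 and 0.026. Genes of the chromosome that are not members can be read in the same way. The 23 long noncoding genes of chromosome 6 at 1 CPM or more differed from the 454 of the other autosomes by -0.173, -0.0773 and -0.0525 in Quaking KO at days 0, 3 and 10. In the Sam68-labelled line they differed by -0.499, -0.181 and -0.132. Their own medians in that line were 0.0136, 0.365 and -0.196, beside 0.512, 0.545 and -0.0641 for the 454. At days 0 and 3 they thus did not read below 0 themselves, while the 454 read higher. The 145 protein-coding genes between 0.1 and 1 CPM differed from their 2384 counterparts by -0.0715, -0.0511 and -0.0991 in Quaking KO and by -0.0402, -0.0793 and -0.152 in the Sam68-labelled line, with a pseudocount of 0.1.

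Members with CpG-rich promoters and members with CpG-poor ones were both lower. At day 0 the 276 members with at least 14 CpG read -0.200 in Quaking KO, beside 0.0021 for 5831 such genes of the other autosomes, and the 253 members below that count read -0.150, beside 0.0016. In the Sam68-labelled line the 2 groups read -0.198, beside 0.0118, and -0.191, beside -0.0159. At day 3 they read -0.100 and -0.0706 in Quaking KO, beside -0.0009 and 0.0037, and -0.124 and -0.0713 in the Sam68-labelled line, beside -0.0017 and -0.0065. At day 10 the CpG-poor members read lower than the CpG-rich ones in Quaking KO, at -0.0886 and -0.0552, beside -0.0041 and 0.0052. At day 10 the CpG-rich members of the Sam68-labelled line read -0.0807, beside 0.0206, and the CpG-poor ones -0.0839, beside -0.0220, so against their own reference the CpG-rich members stood further down.

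Gene by gene, genes were called at an adjusted p under 0.05 in the quasi-likelihood test of edgeR, adjusted over all genes tested by Benjamini-Hochberg. Against wild type the calls only restate the choice of the chromosome. In Quaking KO at day 0, 366 of the 600 members tested were called lower, beside 20.3% of all genes tested, and 46 higher, beside 19.4%. At day 3 the calls were 100 of 605 lower, beside 3.93%, and 6 higher, beside 3.08%, and at day 10 they were 82 of 627 lower, beside 6.71%, and 23 higher, beside 4.96%. Single libraries carried much weight in the later days. The total of 106 calls at day 3 became 55 without Wild Type replicate 2, 69 without Wild Type replicate 3 and 65 without Quaking KO replicate 3. The 105 calls of day 10 became 67 without Quaking KO replicate 1 and 58 without Quaking KO replicate 2. Over members with a mean of at least 5 CPM the day 10 total was 65. All genes were called in either direction at 39.7%, 7.01% and 11.7% over the 3 days. The reference genes of the other autosomes were called lower at 24.1%, 4.72% and 7.65% and higher at 26.1%, 4.44% and 6.29%. The Sam68-labelled line had 368 of 600 members called lower at day 0, beside 37.9% of all genes, and 101 higher, beside 36.5%. At day 3 the calls were 310 of 605 lower, beside 37.1%, and 141 higher, beside 36.0%, and at day 10 they were 194 of 627 lower, beside 27.8%, and 129 higher, beside 22.8%. In either direction all genes were called at 74.4%, 73.1% and 50.6%. The reference genes were called lower at 41.4%, 41.5% and 22.7% in this line, beside 61.3%, 51.2% and 30.9% of the members. They were called higher at 32.3%, 30.2% and 30.8%, beside 16.8%, 23.3% and 20.6% of the members. Of the members, 55 (8.77%) had every Quaking KO library below every wild type library at all 3 days, beside 2.03% of all genes tested at the 3 days, and these lay in 14 of the 15 bins. The opposite held for 2 members (0.319%), beside 1.43%. There were 89 members (14.2%) below wild type in this way in the Sam68-labelled line, in all 15 bins. That is close to the 13.4% of all genes tested, while the share of the reference genes was 8.26%. In the other direction there were 20 members (3.19%), beside 7.45% of all genes tested and 8.18% of the reference genes.

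The 2 knockout lines can be compared directly with each other, although their libraries also stand in the comparisons that chose the chromosome. The wild type libraries of the day still entered the filter, the scaling and the estimate of spread of these tests. Relative to the other autosomes the members of the Sam68-labelled line differed from Quaking KO by 0.0086 ± 0.0109 (SD, n = 3) at day 0, 0.0086 ± 0.0026 at day 3 and -0.0095 ± 0.0116 at day 10. These differences changed sign with the processing: without TMM scaling the first 2 were -0.0029 and -0.0039, and with members of at least 5 CPM the last was 0.0166. Chromosome 6 was rank 13, 12 and 12 from the lowest of the 19 autosomes. Single members differed widely all the same. At day 0, 244 of 600 members (40.7%) were called lower in the Sam68-labelled line, beside 37.0% of all genes tested, and 216 (36.0%) higher, beside 38.9%. At day 3 these were 248 of 605 (41.0%) lower, beside 36.8%, and 169 (27.9%) higher, beside 35.3%. At day 10 they were 184 of 627 (29.3%) lower, beside 30.7%, and 203 (32.4%) higher, beside 25.9%. All genes in either direction came to 75.9%, 72.1% and 56.6%. These shares lay near those of all genes, and nearer still to those of the reference genes of the other autosomes, which were 41.5%, 41.7% and 27.2% lower and 34.4%, 29.4% and 32.4% higher.

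Within wild type, chromosome 6 members were lower at day 3 than at day 0 relative to the rest and level with it at day 10, on medians of -0.0938, the lowest of the 19 autosomes, and 0.0020, rank 9. In Quaking KO the medians were -0.0130 at day 3 and 0.118 at day 10, and in the Sam68-labelled line 0.0345 and 0.156, rank 17 of 19 at both days. In wild type at day 3, 226 of 627 members (36.0%) were called lower than at day 0, beside 30.1% of all genes tested, and 227 (36.2%) higher, beside 30.8%. At day 10 the calls were 252 (40.2%) lower, beside 39.4%, and 293 (46.7%) higher, beside 41.4%. In Quaking KO, 233 members were called lower at day 3, beside 34.8%, and 276 higher, beside 34.2%, and at day 10 they were 232 lower, beside 40.5%, and 329 (52.5%) higher, beside 43.1%. In the Sam68-labelled line the calls were 226 lower, beside 35.9%, and 284 higher, beside 37.0%, at day 3, and 213 lower, beside 43.1%, and 367 (58.5%) higher, beside 45.0%, at day 10. Calls of all genes in either direction came to 60.9% and 80.8% in wild type, 69.0% and 83.5% in Quaking KO and 72.9% and 88.1% in the Sam68-labelled line. Reference genes of the other autosomes were called higher at day 10 in 45.8%, 47.6% and 55.0% of cases in the 3 lines. All these shares of members lay within 10 percentage points of all genes tested except the higher calls of the Sam68-labelled line at day 10.

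The members are described next by what they do, first the stem cell genes, then imprinted, metabolic, RNA-binding and growth genes, signals, developmental regulators and matrix genes. CPM values are relative to a library's total count and in the order of replicates 1, 2 and 3, and fold changes are log2 values from edgeR after TMM scaling. Values set against wild type carry no test. In bulk RNA, fewer cells of a type and less RNA per cell cannot be told apart. Reads that match several genes and exons shared with a neighbour make some values uncertain, since neither the counting program nor its strand setting is stated. Of the members, 143 share more than 5% of their 50-base windows with other genes and 73 share more than 10% of their exon bases with a gene at the same place.

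Stem cell genes did not share 1 direction. Nanog, a homeodomain factor that sustains the pluripotent state (named here outside the fixed rule, after its values were seen), is the best known of them. It had 378, 408 and 399 CPM in wild type at day 0, 517, 548 and 567 in Quaking KO and 235, 243 and 240 in the Sam68-labelled line. At day 3 it had 415, 420 and 432 CPM in wild type, 408, 456 and 423 in Quaking KO and 217, 223 and 228 in the Sam68-labelled line. The Sam68-labelled libraries lay below both other lines at both days, whereas Quaking KO lay above wild type at day 0 and overlapped it at day 3. Against Quaking KO the difference was -1.34 ± 0.03 (SE, adjusted p = 1.71e-17) at day 0, -1.06 ± 0.04 (adjusted p = 2.86e-11) at day 3 and -1.37 ± 0.18 (adjusted p = 5.75e-05) at day 10. The 6 pluripotency markers of other chromosomes, given above, were likewise highest in Quaking KO and lowest in the Sam68-labelled line at day 0, but highest in the Sam68-labelled line at day 10, and their part in the Nanog values was not tested. In wild type Nanog fell by 4.53 ± 0.10 by day 10 (adjusted p = 1.55e-13), to 20.3, 16.9 and 23.2 CPM.

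Gdf3, a growth factor of the TGF-beta family made by stem cells, fell from 98.0, 101 and 104 CPM to 1.55, 2.16 and 2.64 in wild type over the 10 days. This change of -5.81 ± 0.14 (adjusted p = 3.05e-13) was among the 2 largest falls of members with a mean of at least 5 CPM. At day 0 it had 62.2, 64.8 and 65.7 CPM in the Sam68-labelled line and 102, 104 and 107 in Quaking KO, a difference of -0.85 ± 0.03 (adjusted p = 2.47e-14). Phc1, a Polycomb subunit, had 447, 456 and 458 CPM in wild type stem cells, 357, 379 and 381 in Quaking KO and 363, 395 and 390 in the Sam68-labelled line. By day 3 it stood at 504, 494 and 471 CPM in the Sam68-labelled line, above the 378, 345 and 341 of Quaking KO (0.35 ± 0.06, adjusted p = 7.61e-05). Apobec1, a cytidine deaminase that edits RNA, had 15.8, 15.5 and 20.3 CPM in wild type at day 10, 20, 16.2 and 16.7 in Quaking KO and 1.70, 1.57 and 2.30 in the Sam68-labelled line. That is -3.19 ± 0.16 against Quaking KO (adjusted p = 6.95e-08). The 6 members in the pluripotency list are Nanog, Gdf3, Slc2a3, Apobec1, Phc1 and Tead4. Slc2a3 is counted again in the glycolysis list and Phc1 in the chromatin list, so the counts of these lists are not separate. Of the 6, 5 were called lower and 1 higher in the Sam68-labelled line than in Quaking KO at day 0. All genes tested were at 37.0% and 38.9%, and the median was -0.54 beside 0.02. In wild type 5 of the 6 fell by day 3, beside 30.1% of all genes, and 4 by day 10, beside 39.4%, and none rose. The list was chosen as stem cell genes and the level limit is a mean that includes day 0, so these falls are partly fixed by the choice.

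Of the 12 imprinted members, 9 were called lower than wild type at day 0 in each knockout line, beside 61.0% and 61.3% of all chromosome 6 members tested, and the choice of the chromosome enters this direction. Peg10, a retrotransposon-derived gene needed in the placenta, had 618, 573 and 566 CPM in wild type stem cells, 292, 288 and 280 in Quaking KO and 431, 443 and 437 in the Sam68-labelled line. The 3 lines did not overlap, and Quaking KO lay 1.00 below wild type on the log2 scale and the Sam68-labelled line 0.55 below. At day 3 the order of the knockout lines was turned, with 211, 253 and 228 CPM in wild type, 131, 165 and 167 in Quaking KO and 97.7, 106 and 117 in the Sam68-labelled line. The Sam68-labelled line was above Quaking KO at day 0 by 0.45 ± 0.04 (adjusted p = 4.44e-09) and below it at day 3 by -0.65 ± 0.08 (adjusted p = 3.82e-06). By day 10 the gene reached 1920, 1690 and 1660 CPM in wild type, a rise of 1.34 ± 0.08 (adjusted p = 2.19e-09), and the difference between the knockout lines, 0.06 ± 0.08, did not pass the test (adjusted p = 0.599). Mest, the other abundant member of the list, rose in wild type from 147, 152 and 158 CPM to 629, 637 and 693 (1.86 ± 0.07, adjusted p = 2.39e-11). Of Mest, 23.12% of the exon bases lie in exons of Copg2 on the opposite strand. Between day 0 and day 10, 11 of the 12 rose and none fell in wild type, beside 41.4% and 39.4% of all genes tested. Only 12 of the 16 listed genes reached the level limit, a mean to which day 10 contributes, so the limit bears on this count.

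The 8 members of the glycolysis list had medians of -0.05 and -0.01 against wild type in Quaking KO at days 0 and 3, and of -0.52 and -0.36 in the Sam68-labelled line. Gapdh, an enzyme of glycolysis and the most abundant member, had 2340, 2520 and 2620 CPM in wild type at day 0, 2220, 2410 and 2480 in Quaking KO and 1470, 1490 and 1490 in the Sam68-labelled line. The difference between the knockout lines was -0.83 ± 0.03 at day 0 (adjusted p = 7.12e-14) and -0.60 ± 0.06 at day 3 (adjusted p = 1.37e-07), while that at day 10, 0.20 ± 0.10, did not pass the test (adjusted p = 0.102). Ldhb, a lactate dehydrogenase subunit, had 80.3, 88.2 and 90.2 CPM in wild type stem cells, 80.1, 89.6 and 90.4 in Quaking KO and 23.7, 27.2 and 24 in the Sam68-labelled line. This was a difference of -1.95 ± 0.05 between the knockout lines (adjusted p = 1.08e-16). It rose in the Sam68-labelled line by 1.78 ± 0.05 to 85.6, 86.1 and 91.9 CPM at day 3 (adjusted p = 8.14e-15). Both genes have related copies elsewhere: 25.1% of the windows of Gapdh and 21% of those of Ldhb also occur in other genes. Slc2a3, a glucose transporter near Nanog, had 1740, 1890 and 1470 CPM in wild type at day 10, 842, 1030 and 1110 in Quaking KO and 3010, 2810 and 2430 in the Sam68-labelled line. The 3 lines did not overlap, and the knockout lines differed by 1.53 ± 0.14 (adjusted p = 4.8e-06). Of the 8 members in the glycolysis list, 7 were called lower and none higher in the Sam68-labelled line than in Quaking KO at day 0, beside 37.0% and 38.9% of all genes tested, with a median of -0.45. At day 10 there were 1 lower and 4 higher, beside 30.7% and 25.9%, with a median of 0.32.

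The 4 members of the amino acid and one-carbon list were each lower in the Sam68-labelled line than in Quaking KO at days 0 and 3, beside 37.0% and 36.8% of all genes tested. Each also fell by day 3 and by day 10 in all 3 lines, beside 30.1% to 43.1% of all genes. Asns, which makes asparagine, had 478, 521 and 539 CPM in wild type stem cells, 542, 571 and 581 in Quaking KO and 316, 331 and 322 in the Sam68-labelled line. This was a difference of -0.96 ± 0.03 between the knockout lines (adjusted p = 1.45e-14). In wild type it fell by 2.47 ± 0.08 by day 3 (adjusted p = 9.96e-12). Bcat1, an enzyme of branched-chain amino acids, was at 313, 326 and 333 CPM in wild type, 329, 347 and 355 in Quaking KO and 207, 217 and 218 in the Sam68-labelled line at day 0 (-0.84 ± 0.03, adjusted p = 1.27e-14). Gars, which loads glycine onto its transfer RNA, stood at 281, 279 and 250 CPM in the Sam68-labelled line at day 10, above the 186, 182 and 198 of Quaking KO (0.58 ± 0.07, adjusted p = 2.66e-05).

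All 20 members of the RNA-binding and ribosome list lay below 0 against wild type in Quaking KO stem cells, with a median of -0.24, beside -0.20 over all chromosome 6 members tested and 0.0015 over all genes. The list thus lay near the chromosome as a whole, whose shift was the reason for its choice. Hnrnpa2b1, a splicing and transport protein, had 511, 581 and 506 CPM in wild type at day 0, 438, 470 and 512 in Quaking KO and 687, 662 and 687 in the Sam68-labelled line. Wild type and Quaking KO overlapped, and the Sam68-labelled line was above Quaking KO by 0.37 ± 0.04 (adjusted p = 4.74e-07). Rpl32, a ribosomal protein, had 1040, 1090 and 1090 CPM in wild type, 928, 1010 and 998 in Quaking KO and 587, 592 and 587 in the Sam68-labelled line at day 0. It was lower in the Sam68-labelled line than in Quaking KO by -0.89 ± 0.03 at day 0 (adjusted p = 1.9e-15), -0.96 ± 0.05 at day 3 (adjusted p = 4.43e-10) and -0.48 ± 0.11 at day 10 (adjusted p = 0.00376). However, 25.6% of its windows occur in other genes and 14.54% of its exon bases overlap a small nucleolar RNA gene. Of the 20 members, 13 were called lower and 4 higher in the Sam68-labelled line than in Quaking KO at day 3, beside 36.8% and 35.3% of all genes tested and 41.0% and 27.9% of all members.

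Growth and chromatin members are given next. Mcm2, a helicase subunit of DNA replication, had 485, 497 and 525 CPM in wild type stem cells, 470, 525 and 497 in Quaking KO and 408, 419 and 413 in the Sam68-labelled line (-0.42 ± 0.03 between the knockout lines, adjusted p = 1.15e-09). Ccnd2, a cyclin of the first growth phase, at day 0 was low in Quaking KO alone, with 20.7, 22.7 and 19.5 CPM in wild type, 6.78, 8.49 and 8.39 in Quaking KO and 22.5, 20.8 and 19.8 in the Sam68-labelled line. The Sam68-labelled line was above Quaking KO by 1.26 ± 0.07 at day 0 (adjusted p = 1.17e-11) and below it by -0.47 ± 0.10 at day 3 (adjusted p = 0.000501). At day 10 Wild Type replicate 1 held 251 CPM of Ccnd2 and the other wild type libraries 128 and 124. Chd4, the remodelling ATPase of the NuRD complex, had 612, 631 and 583 CPM in wild type, 548, 570 and 601 in Quaking KO and 757, 771 and 764 in the Sam68-labelled line at day 0 (0.26 ± 0.03 between the knockout lines, adjusted p = 3.99e-07). Of 19 chromatin members, 7 were called lower and 9 higher in the Sam68-labelled line than in Quaking KO at day 0, and of 14 cell cycle and repair members 6 were lower and 5 higher. All genes tested were at 37.0% and 38.9%, so these counts lay near the background. Mbd4 is counted in both lists. By day 10, 10 of these 14 fell and 2 rose in wild type, beside 39.4% and 41.4% of all genes. Hist4h4, a histone H4 gene, had 237, 246 and 279 CPM in wild type at day 3, 213, 263 and 244 in Quaking KO and 48.8, 58.3 and 66.5 in the Sam68-labelled line (-2.17 ± 0.10 between the knockout lines, adjusted p = 4.26e-11). Of its windows 8.52% were shared with other genes.

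Of the 25 listed signalling genes, 20 reached the level limit. In wild type 14 of the 20 rose by day 3, beside 30.8% of all genes tested, and 17 by day 10, beside 41.4%. By day 10, 18 of 20 rose in either knockout line, beside 43.1% and 45.0%. The limit is a mean over all days, so genes nearly silent at day 0 entered only through later days, and these counts are partly fixed by it. Ptn, a secreted growth factor that binds heparin, had 0.567, 0.597 and 0.692 CPM in wild type stem cells, 0.269, 0.196 and 0.168 in Quaking KO and 0.145, 0.238 and 0.283 in the Sam68-labelled line. It rose by 7.80 ± 0.19 in wild type (adjusted p = 3.08e-13) to 126, 179 and 183 CPM at day 10. Quaking KO reached 168, 145 and 140 CPM, within the range of wild type, and the Sam68-labelled line 24.8, 19.0 and 35.5, which is -2.45 ± 0.21 against Quaking KO (adjusted p = 2.35e-06). Cxcl12, a chemokine that guides migrating cells, went from 0.299, 0.269 and 0.368 CPM to 41.7, 36.0 and 39.0 at day 3 in wild type (6.86 ± 0.13, adjusted p = 2.22e-13). This was 1 of the 2 largest rises by that day among members of at least 5 CPM. Lrp6, a co-receptor for Wnt, had 102, 102 and 90.8 CPM in wild type at day 3, 91.1, 86.1 and 86.8 in Quaking KO and 123, 130 and 123 in the Sam68-labelled line (0.39 ± 0.05 between the knockout lines, adjusted p = 9.18e-06). Ndnf, a secreted protein of neurons and vessels, changed place between the lines. At day 0 it had 0.174, 0.0903 and 0.122 CPM in Quaking KO and 1.21, 0.883 and 0.903 in the Sam68-labelled line (2.80 ± 0.26, adjusted p = 1.6e-08). By day 10 it had 27.3, 30.9 and 34.9 against 5.42, 3.16 and 7.66 (-2.46 ± 0.23, adjusted p = 5.96e-06).

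Developmental regulators included Tfec and Evx1, which were among the 3 largest differences per direction between the knockout lines at day 3. Tfec, a transcription factor of the Mitf family, had 1.43, 1.36 and 1.33 CPM in wild type stem cells, 0.585, 0.737 and 0.824 in Quaking KO and 6.39, 6.44 and 6.96 in the Sam68-labelled line. At day 3 it had 3.76, 3.97 and 4.01 CPM in wild type, 1.53, 1.55 and 1.78 in Quaking KO and 11.7, 11 and 9.40 in the Sam68-labelled line. Wild type stood between the other lines at both days with no overlap, and the knockout lines differed by 3.05 ± 0.11 (adjusted p = 2.25e-14) and 2.60 ± 0.10 (adjusted p = 1.14e-11). Evx1, a homeobox gene of the primitive streak, had 28.3, 44.0 and 37.2 CPM in wild type at day 3, 21.1, 35.2 and 32.8 in Quaking KO and 1.87, 2.77 and 3.74 in the Sam68-labelled line (-3.52 ± 0.22 between the knockout lines, adjusted p = 1.94e-09). The summed CPM of 4 streak markers (T, Eomes, Mixl1, Mesp1) was 478 to 737 in wild type at day 3, 301 to 539 in Quaking KO and 66.9 to 110 in the Sam68-labelled line. None was listed at 0, 3 or 4 of them were above 1 CPM, and their part in the Evx1 values was not tested. Smyd1, a methyltransferase of heart and skeletal muscle, had 28.0, 34.9 and 37.5 CPM in wild type at day 10, 11.7, 17.4 and 24.8 in Quaking KO and 102, 95.3 and 92.6 in the Sam68-labelled line (2.49 ± 0.22 between the knockout lines, adjusted p = 3.14e-06). All 5 cardiac markers (Myh6, Myh7, Tnnt2, Actn2, Nkx2-5) were above 1 CPM at day 10, and their sum was 788 to 878 CPM in wild type, 207 to 449 in Quaking KO and 1560 to 1720 in the Sam68-labelled line. Its part in the Smyd1 values was not tested. Foxp1, a forkhead factor, had 106, 109 and 107 CPM in wild type stem cells, 69.4, 66.8 and 69.0 in Quaking KO and 103, 105 and 108 in the Sam68-labelled line. Quaking KO alone stood apart (0.47 ± 0.03 between the knockout lines, adjusted p = 2.81e-10). Of 21 listed lineage factors 13 reached the level limit, and of these 10 rose and 1 fell by day 10 in wild type, beside 41.4% and 39.4% of all genes tested. The limit bears on this count as on that of the signalling genes.

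**Figure D5:**
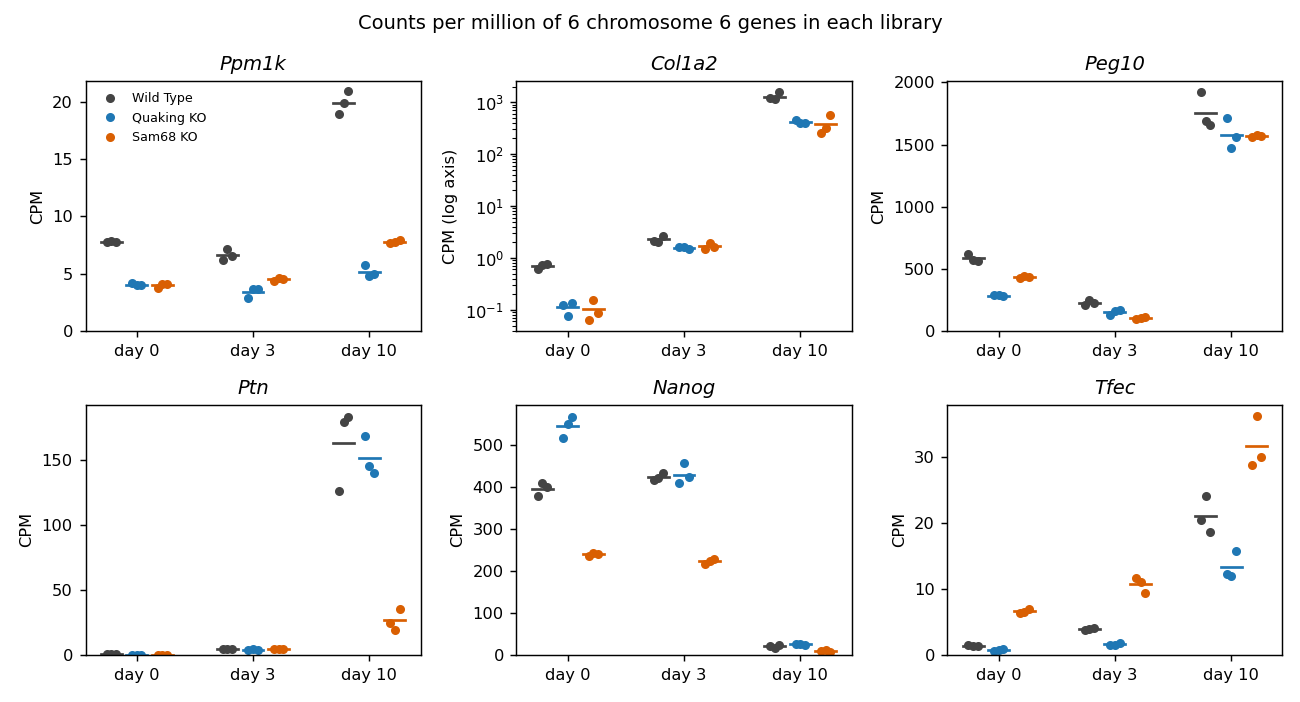
CPM of 6 chromosome 6 genes (y axes; logarithmic for Col1a2) in each library by line and day (x axes); points are libraries and short lines the means of 3. Ppm1k lies below wild type in both knockout lines at every day, Nanog and Tfec separate the 2 knockout lines from each other at day 0, and Ptn is low at day 10 in the Sam68-labelled line (19.0 to 35.5 CPM).

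Matrix genes included Col1a2, the second chain of type I collagen (chr6:4504814-4541544, plus strand, GRCm38), whose promoter is printed above. It had 0.612, 0.731 and 0.751 CPM in wild type stem cells, 0.126, 0.0752 and 0.137 in Quaking KO and 0.0644, 0.153 and 0.0886 in the Sam68-labelled line. At day 10 it had 1180, 1130 and 1540 CPM in wild type, 459, 405 and 392 in Quaking KO and 254, 313 and 559 in the Sam68-labelled line. Every knockout library lay below every wild type library at both days, and the log2 differences from wild type were -2.58 and -1.61 in Quaking KO and -2.88 and -1.71 in the Sam68-labelled line. The knockout lines did not differ from each other in the test at any day (day 10: -0.10 ± 0.23, adjusted p = 0.747). In wild type it rose by 10.61 ± 0.18 between day 0 and day 10 (adjusted p = 2.52e-14), 1 of the 2 largest rises among members of at least 5 CPM. The summed CPM of 4 fibroblast markers (Col1a1, Col3a1, Thy1, Postn) at day 10 was 5540 to 7230 in wild type, 4260 to 6630 in Quaking KO and 2400 to 3510 in the Sam68-labelled line. None was listed at 0 and 4 of 4, 3 of 4 and 3 of 4 were above 1 CPM, and their part in the Col1a2 values was not tested. Cald1, which encodes an actin-binding protein of smooth muscle, had 81.3, 90 and 86.8 CPM in wild type at day 0, 90, 84.5 and 90.3 in Quaking KO and 58.5, 56.2 and 59.7 in the Sam68-labelled line (-0.76 ± 0.04 between the knockout lines, adjusted p = 4.8e-12). Emp1, an epithelial membrane protein, was nearly silent at day 3 in all lines. Wild type went from 84.7, 87.1 and 85.3 CPM to 0.105, 0.0867 and 0.133 (-9.70 ± 0.17, adjusted p = 1.75e-13). Quaking KO went from 104, 114 and 105 to 0.116, 0.0840 and 0.144, and the Sam68-labelled line from 73.3, 69.3 and 72.9 to 0.101, 0.128 and 0.0947.

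Ppm1k, a mitochondrial phosphatase that switches on the breakdown of branched-chain amino acids (chr6:57506502-57535468, minus strand), was lower in both knockout lines at each day. It had 7.76, 7.88 and 7.80 CPM in wild type stem cells, 4.22, 3.99 and 4 in Quaking KO and 3.78, 4.15 and 4.14 in the Sam68-labelled line. At day 3 it had 6.18, 7.13 and 6.56 CPM, 2.92, 3.70 and 3.65, and 4.39, 4.67 and 4.53 in the same order of lines. At day 10 it had 18.9, 19.9 and 20.9 CPM in wild type, 5.80, 4.77 and 4.98 in Quaking KO and 7.67, 7.78 and 7.92 in the Sam68-labelled line. No knockout library reached wild type at any day. It rose by day 10 in wild type by 1.11 ± 0.08 (adjusted p = 1.88e-08) and in the Sam68-labelled line by 1.00 ± 0.08 (adjusted p = 2.04e-09), whereas the change in Quaking KO, 0.12 ± 0.11, did not pass the test (adjusted p = 0.291).

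Gm20594, a predicted gene by its name (chr6:79817916-79818364, plus strand), was almost missing from the Sam68-labelled libraries at every day. It had 26.6, 23.9 and 27.2 CPM in wild type at day 0, 29.8, 21.9 and 21.8 in Quaking KO and 0.209, 0.289 and 0.337 in the Sam68-labelled line. The Sam68-labelled libraries held 13, 17 and 19 counts of it at day 0, 0, 2 and 1 at day 3 and 6, 0 and 3 at day 10, beside 4772, 3128 and 3763 counts over the Quaking KO libraries of each day. The ratio to Quaking KO was 0.0113 (exact 95% interval for counting error 0.00835 to 0.0150) at day 0, 0.00109 at day 3 (interval 0.000224 to 0.00318) and 0.00218 at day 10 (interval 0.000995 to 0.00414). Wild type and Quaking KO overlapped at each day. The windows of this gene are shared with other genes to 4.0%. That measure counts only exact matches in annotated transcripts, so it does not show near copies elsewhere in the genome. The Sam68-labelled libraries are numbered in a range of their own, so the line and library making cannot be told apart here either. The source of the reads counted for this gene was not tested.

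Other members with large differences between the 2 knockout lines had varied roles. A2m, a protease inhibitor of blood plasma, had 1.22, 1.21 and 1.42 CPM in the Sam68-labelled line at day 0 against 4.06, 4.17 and 4.58 in Quaking KO (-1.89 ± 0.10, adjusted p = 4.73e-12). Wild type had 3.81, 3.75 and 3.75. Slc13a4, a sulfate transporter, had 154, 128 and 115 CPM in the Sam68-labelled line at day 10 against 26.2, 30.9 and 30.6 in Quaking KO (2.24 ± 0.15, adjusted p = 4.09e-07), with 57.7, 63.4 and 45.0 in wild type. B4galnt3, a glycosyltransferase, had 53.6, 51.8 and 48.1 CPM at day 10 against 9.78, 9.87 and 12 (2.34 ± 0.09, adjusted p = 1.69e-08), with 13.2, 14.2 and 13.3 in wild type. Tmem140, a membrane protein, had 1.29, 1.44 and 1.29 CPM at day 0 against 0.158, 0.166 and 0.183 (2.82 ± 0.23, adjusted p = 1.9e-09), but 37.04% of its exon bases lie in exons of Cyren on the opposite strand. Amn1 and Tcf7l1 were among the 5 members with the highest mean over the 6 comparisons with wild type. Amn1 had 22.9, 23.8 and 24.9 CPM at day 0 in the Sam68-labelled line and 8.74, 7.98 and 8.16 in Quaking KO (1.37 ± 0.06, adjusted p = 1.67e-13). Tcf7l1, a repressor in the Wnt pathway, had 35.5, 33.4 and 31.7 CPM at day 3 in the Sam68-labelled line and 15, 13.3 and 16.2 in Quaking KO (1.06 ± 0.07, adjusted p = 2.66e-09).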

How the data were processed

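Ribosomal-depleted, stranded total RNA was sequenced as paired reads of 125 bases, 1 library per sample, per the labels' protocols. The authors deposited raw read counts per gene for each of the 27 libraries. STAR 2.5.3a, bcl2fastq 2.17.1.14 and the GRCm38 build are named in the submitters' processing notes. For the counting program, its strand setting and its annotation: not given in the sources used here.

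Gene identifiers were matched without version to GENCODE release M21 on GRCm38, and 51633 of 51826 (99.6%) matched. Libraries held 56461674 to 77257496 counts, and count ratios carry exact 95% intervals that cover counting error only. Levels are CPM of the total count. Medians use TMM-scaled CPM with a pseudocount of 0.5. Tests were edgeR 4.0.16 quasi-likelihood tests in R 4.3.3 with limma 3.58.1, after filterByExpr with a minimum count of 10 and a minimum total of 15, with Benjamini-Hochberg adjustment over all genes kept; lines were fitted with all libraries of a day, and days with all libraries of a line. At day 3 the replicate numbers partly paired wild type with Quaking KO by the data alone. Same-numbered libraries had correlations of their deviations from the group means of 0.528, 0.209 and 0.13, and 2 of 3 were best with their own number. The p-values set a difference against the spread between replicate libraries, estimated over all libraries of a fit. With 1 line per genotype, they hold no variation between separately made lines. The test was tried on simulated counts. Alternatives included DESeq2 1.42.0.

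Members and lists were chosen with earlier results of these data known. Named genes are the 2 most abundant members and the member with the largest mean change in each role list, the 5 lowest and 5 highest members by mean change against wild type, the 3 largest differences per direction and day between the knockout lines, the 2 largest changes per direction and day in wild type, and the neighbours of the level limit, and from these the text describes most. Limits on mean level of 5 CPM applied to the last lists. Role lists and marker lists were written by hand, and the members Slc2a3, Phc1 and Mbd4 each stand in 2 role lists. Shared sequence was measured as 50-base windows of a gene's exons that occur in other genes.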

Additional observations from a re-analysis of the deposited data

Results flagged for a closer look

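The 2 knockout lines, set against the same wild type libraries, differed from each other for these chromosome 6 genes. The test was a direct edgeR test of the line labelled Sam68 KO against Quaking KO, with Benjamini-Hochberg adjustment over all genes. Its p-values hold no variation between separately made lines. The knockout, the history of a line and library making cannot be told apart in this comparison. RNA of the Sam68 gene was not lost in the line labelled Sam68 KO. At day 0 the log2 difference was 3.05 ± 0.11 (SE, adjusted p = 2.25e-14) for Tfec, 2.82 ± 0.23 (adjusted p = 1.9e-09) for Tmem140 and 2.80 ± 0.26 (adjusted p = 1.6e-08) for Ndnf. It was -6.62 for Gm20594, -1.95 ± 0.05 (adjusted p = 1.08e-16) for Ldhb and -1.89 ± 0.10 (adjusted p = 4.73e-12) for A2m. At day 3 it was 2.60 ± 0.10 (adjusted p = 1.14e-11) for Tfec, 2.27 ± 0.26 (adjusted p = 1.45e-06) for Tmem140 and 1.83 ± 0.20 (adjusted p = 7.76e-07) for Ndnf, and -9.81 for Gm20594, -3.52 ± 0.22 (adjusted p = 1.94e-09) for Evx1 and -2.17 ± 0.10 (adjusted p = 4.26e-11) for Hist4h4.

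At day 10 the difference was 2.49 ± 0.22 (adjusted p = 3.14e-06) for Smyd1, 2.34 ± 0.09 (adjusted p = 1.69e-08) for B4galnt3 and 2.24 ± 0.15 (adjusted p = 4.09e-07) for Slc13a4, and -8.71 for Gm20594, -3.19 ± 0.16 (adjusted p = 6.95e-08) for Apobec1 and -2.46 ± 0.23 (adjusted p = 5.96e-06) for Ndnf. The 6 libraries compared did not overlap in any of these. The fitted values of Gm20594, with 0 to 19 counts in each Sam68-labelled library, depend on the prior count and are no bound.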

How the results depend on the processing

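Of 108 alternative values of the chromosome 6 median, 79 moved by less than 1 SD between libraries, 24 moved by more with the same sign and 5 changed sign, all 5 in the comparison of the 2 knockout lines. In Quaking KO against wild type the day 0 median was -0.193 with a pseudocount of 0.1 and -0.185 over members of at least 5 CPM. At day 3 it was -0.0982 and -0.0937 under these settings and -0.0964 as a mean over members. In the Sam68-labelled line the same 3 settings (pseudocount, level, mean) gave -0.196, -0.197 and -0.195 for the stem cells and -0.0889, -0.108 and -0.0933 for day 3. The level and the mean gave -0.0699 and -0.148 for day 10. Between the knockout lines, CPM on total counts gave -0.0029 at day 0 and -0.0039 at day 3. The mean over members gave -0.0145, 0.0031 and -0.0681 at the 3 days, members of at least 5 CPM gave -0.0079 at day 3 and 0.0166 at day 10, and the pseudocount of 0.1 gave 0.0050 at day 3. With members of at most 5% shared sequence, a setting chosen after seeing the data, the Sam68-labelled line read -0.0652 at day 3 and -0.0953 at day 10 against wild type, and 0.0199 and -0.0229 against Quaking KO. Leaving out 1 library at a time gave -0.0916 to -0.0859 for Quaking KO and -0.0823 to -0.0759 for the Sam68-labelled line at day 3, and 0.0070 to 0.0130 between them. Called members ranged from 55 to 132 at day 3 and from 58 to 153 at day 10 in Quaking KO without 1 library, and were 65 at day 10 over members of at least 5 CPM; the cause of these moves was not tested. All other 198 alternative counts stayed within 1.5 times their value. With 20 Mb bins, 100% of the bins of the Sam68-labelled line lay below 0 at days 3 and 10, beside 51.7% and 59.2% of the other autosomes' bins.

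Outside the day 3 comparison of wild type and Quaking KO, the data did not settle whether shared replicate numbers pair the libraries. Same-numbered libraries of these 2 lines had correlations of their deviations from -0.207 to -0.084 at day 0 and from -0.129 to 0.195 at day 10. At day 0, 0 of 3 were best with their own number, and at day 10, 2 of 3 were, as at day 3. The range was -0.104 to 0.108 between wild type and the Sam68-labelled line, where 0 of 9 correlated best with their own number. Between the knockout lines it was -0.151 to 0.122, and 4 of 9 did, among them 2 of 3 at day 0. With the replicate number as a block, 405, 143 and 98 members were called in Quaking KO at days 0, 3 and 10, beside 412, 106 and 105 without it, 460, 457 and 319 in the Sam68-labelled line and 452, 428 and 380 between them. Over time the block gave 467 and 552 calls in wild type, 522 and 568 in Quaking KO and 504 and 576 in the Sam68-labelled line. The block medians were -0.179, -0.0918 and -0.0706 in Quaking KO, -0.176, -0.0877 and -0.0862 in the Sam68-labelled line and 0.0122, 0.0079 and -0.0057 between them.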
